A study of Mus musculus with 36 samples.

Results

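Liver RNA of mice on a high fat diet was compared with liver RNA of mice on normal chow at lights on, Zeitgeber time 0 (ZT0, where Zeitgeber time counts the hours since the lights came on). The samples were chosen by their labelled time and diet, and they are 6 of the 36 in the series, 3 per diet, with 1 array each. All mice were C57BL/6J animals from JAX, aged 16 weeks at harvest, which lived in 12 h of light and 12 h of darkness with food always available and had eaten chow or a diet with 60% of its kcal from fat for 10 weeks. The other 30 samples are the same diets at ZT4, ZT8, ZT12, ZT16 and ZT20, 3 per diet and time. The labels give neither the sex of the mice nor how the animals of a group were kept apart, so p-values measure only the spread between these samples.

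The liver keeps time through a loop in which the activators Clock and Arntl (also called Bmal1) switch on the Per, Cry and Nr1d genes, whose proteins then repress the loop. The nuclear receptors Nr1d1 and Nr1d2 (REV-ERB alpha and beta) close a side branch of it by repressing Arntl and many metabolic genes, and Dbp carries the rhythm to output genes. Lights on is the start of the rest phase of a mouse, when a liver that received food at night passes from storing nutrients to releasing them. A diet rich in fat supplies fatty acids to the liver directly and leaves less need to make them from sugar.

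Values are log2(intensity + 16), where intensity is the deposited value of a probe set, and differences are high fat diet minus chow on this scale, which understates the change of dim genes. A difference of 1.00 is 2-fold. Errors of differences are standard errors from limma, fitted on all 36 samples, and a gene was called at a Benjamini-Hochberg adjusted p under 0.05 over the 13956 genes tested. Probe set brightness depends on the probes, so levels of different genes were not compared.

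The 6 arrays had median intensities of 75.7 to 86.5 on chow and 85.6 to 95.6 on high fat diet, and replicate arrays correlated at r = 0.981 to 0.991 across genes. The median SD among the 3 samples was 0.12 on either diet. The samples carried the RNA of liver, with 18 hepatocyte markers such as albumin and transthyretin at mean levels of 11.33 to 11.55. The Y-linked Kdm5d was at 8.39 to 8.67 in the 6 samples, with 0.05 ± 0.09 between the diets. Over all 36 samples Kdm5d ran from 8.25 to 8.67, and the Y-linked Eif2s3y and Uty from 8.87 to 9.49 and from 8.04 to 8.77. Xist, which female cells express, stayed at 4.53 to 5.52, under the 6.11 needed for testing. This is the pattern of male liver.

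At ZT0, 470 genes were higher on high fat diet (3.37% of those tested) and 523 were lower (3.75%), 993 in all (7.12%). At the other times 515 genes were called at ZT4 (3.69%), 108 at ZT8 (0.774%), 759 at ZT12 (5.44%), 310 at ZT16 (2.22%) and 285 at ZT20 (2.04%). These were 319 higher and 196 lower at ZT4, 39 and 69 at ZT8, 345 and 414 at ZT12, 146 and 164 at ZT16, and 173 and 112 at ZT20. List counts given below for these times stand beside these totals. The median gene moved by 0.03, and the split between directions depended on the scaling of the arrays. It was 358 higher and 873 lower after quantile normalization, and 195 higher and 1611 lower after median centring, which moved the median of all genes to -0.10. The called differences were mostly small, with a median of 0.51 for higher and -0.38 for lower genes, and 38 genes rose and 18 fell at least 2-fold. The 3 values of one diet all lay above those of the other for 942 of the 993 called genes, against 26.5% of all tested genes (14.9% with high fat diet above and 11.5% with it below). The calls were made on these same values, so this separation of called genes follows largely from the selection.

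Single samples weighed on these counts. Leaving out chow sample 3 left 99 higher and 171 lower genes, leaving out high fat sample 1 left 140 and 237, leaving out high fat sample 2 left 219 and 217, and leaving out chow sample 2 left 295 and 206. Chow sample 3 had the lowest chow value in 261 of the 470 higher genes, and high fat sample 1 had the highest value in 216 of them. Judged on the spread of the 6 ZT0 samples alone, 195 genes were higher and 90 lower.

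**Figure D1:**
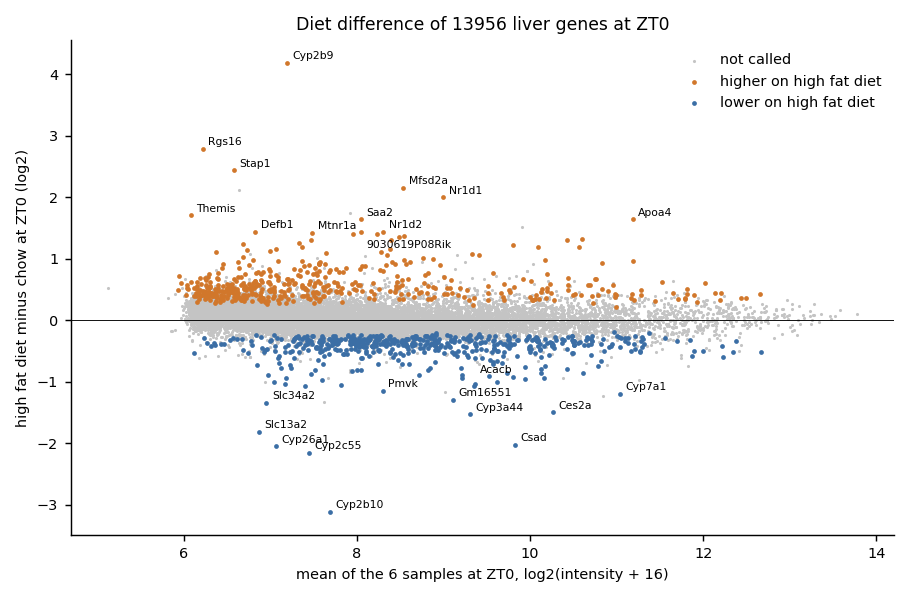
Each point is a gene, with its mean log2(intensity + 16) over the 6 samples on the x axis and the difference, high fat diet minus chow at ZT0, on the y axis, and called genes are coloured by direction. The called higher genes sit further left than the called lower genes. Taken as the mean over all 36 samples, their median levels were 7.19 and 8.69, against 7.76 for all genes.

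Nr1d1, Nr1d2 and Dbp, 3 genes of the clock and its output, were higher on high fat diet at ZT0 by more than at the other times. Nr1d1 (probe set 10390691) was at 7.22, 7.74 and 9.04 in the 3 chow samples and at 10.03, 9.77 and 10.19 in the 3 high fat samples. All high fat samples exceeded all chow samples, although chow sample 3 stood well above the other chow samples. The difference was 2.00 ± 0.26 (3.99-fold, limma adjusted p = 2.44e-05), and it ranged from 1.61 to 2.52 when any of the 6 samples was left out. That error draws on all 36 samples, whereas the SD at ZT0 was 0.94 on chow and 0.21 on high fat diet. Over 19 alternatives the limma adjusted p reached at most 0.0302. At the other 5 times the Nr1d1 difference lay between -0.74 and 0.11, and none was called. The ZT0 difference exceeded the mean of the other 5 by 2.33 ± 0.29 (adjusted p = 2.97e-05).

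Nr1d2 (probe set 10417734), the second REV-ERB gene, was at 7.20, 7.46 and 8.11 on chow and at 9.22, 8.70 and 9.16 on high fat diet. The groups were apart by more than the distance among chow samples, with a difference of 1.44 ± 0.17 (2.71-fold, adjusted p = 3.49e-06). At ZT20 its difference was called the other way, at -0.68, and ZT0 exceeded the mean of the other times by 1.68 ± 0.18 (adjusted p = 4.16e-06).

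Dbp (probe set 10553092), the output activator of the D-box, was at 6.17, 6.07 and 5.96 on chow and at 7.25, 7.18 and 7.50 on high fat diet. The samples of each diet lay close together, with SDs of 0.10 and 0.17, and the difference was 1.24 ± 0.17 (2.37-fold, adjusted p = 3.12e-05). Dbp was also higher at ZT4 (0.73) and was lower at ZT12 (-0.58), and its ZT0 difference exceeded the mean of the others by 1.39 ± 0.18 (adjusted p = 9.77e-05). Per3 (probe set 10518781), a period gene, was at 5.87, 6.00 and 5.52 on chow and at 6.41, 6.04 and 6.46 on high fat diet. Here the groups nearly touched, at 6.00 and 6.04, and the difference of 0.51 ± 0.14 (adjusted p = 0.0277) lost its call in 10 of 19 alternatives. Its ZT0 difference minus the mean of the others, 0.61, was not called (adjusted p = 0.0798).

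The promoters of these 4 genes are shown because these clock genes were higher together at ZT0. Capitals mark matches on either strand to CACGTG (E-box), CACGTT (its variant), AGGTCA (part of the REV-ERB and ROR element) or TTATGTAA (D-box). Each promoter is the 250 bases before the RefSeq gene start on GRCm38.p6, read in the direction of the gene. They lie at chr11:98775378-98775627 (Nr1d1, minus strand), chr14:18239107-18239356 (Nr1d2, minus strand), chr7:45704997-45705246 (Dbp, plus strand) and chr4:151044666-151044915 (Per3, minus strand).
Nr1d1: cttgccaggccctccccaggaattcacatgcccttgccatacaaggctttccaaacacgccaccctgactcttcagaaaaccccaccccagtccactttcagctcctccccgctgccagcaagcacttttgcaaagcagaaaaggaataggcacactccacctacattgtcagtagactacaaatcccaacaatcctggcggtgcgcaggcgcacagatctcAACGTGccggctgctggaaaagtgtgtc
Nr1d2: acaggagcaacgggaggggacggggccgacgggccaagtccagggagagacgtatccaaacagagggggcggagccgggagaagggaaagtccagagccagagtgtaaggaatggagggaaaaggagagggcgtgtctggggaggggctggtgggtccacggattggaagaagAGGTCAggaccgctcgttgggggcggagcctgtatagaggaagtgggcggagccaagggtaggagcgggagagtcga
Dbp: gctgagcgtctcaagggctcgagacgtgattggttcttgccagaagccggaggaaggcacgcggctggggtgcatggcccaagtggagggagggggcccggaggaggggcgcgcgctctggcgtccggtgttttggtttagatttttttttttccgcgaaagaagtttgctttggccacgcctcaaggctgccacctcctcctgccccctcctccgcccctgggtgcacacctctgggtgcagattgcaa
Per3: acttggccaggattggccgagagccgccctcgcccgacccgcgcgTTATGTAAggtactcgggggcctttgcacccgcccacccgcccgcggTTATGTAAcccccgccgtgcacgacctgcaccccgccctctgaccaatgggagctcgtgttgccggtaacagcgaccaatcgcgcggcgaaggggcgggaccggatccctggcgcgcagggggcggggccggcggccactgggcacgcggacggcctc
The Nr1d1 window held 1 AACGTG, which is CACGTT on the other strand, the Nr1d2 window 1 AGGTCA and the Per3 window 2 TTATGTAA. AGGTCA is only a part of the REV-ERB and ROR element, and the whole element was not searched for. None of the 4 words was found in the Dbp window, which says only that these letters are not in it. Among 32851 mouse promoter windows of this length, 6.02% held CACGTG, 3.85% CACGTT, 14.0% AGGTCA and 0.819% TTATGTAA.

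The position of ZT0 on the daily curve of Nr1d1 is seen in the neighbouring times. Nr1d1 on chow had means of 6.64 at ZT20, 8.00 at ZT0 and 11.15 at ZT4, and on high fat diet 6.75, 9.995 and 10.67. Both diets thus started low at ZT20 and were high at ZT4, and the diets stood apart at ZT0. Dbp went from 7.12 at ZT20 through 6.07 to 9.08 at ZT4 on chow and from 6.62 through 7.31 to 9.81 on high fat diet. Its lowest mean of these 3 times was at ZT0 on chow and at ZT20 on high fat diet.

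The activators and the other repressors were not called at ZT0. Arntl differed by -0.19 ± 0.20 and Clock by -0.11 ± 0.10. The cryptochrome Cry1 was at 8.16, 7.87 and 7.88 on chow and at 7.68, 7.56 and 7.58 on high fat diet, so the diets did not overlap, but its difference of -0.36 ± 0.12 missed the threshold (limma adjusted p = 0.0684). Cry1 was called lower after quantile normalization (-0.43, adjusted p = 0.0374) and median centring (-0.50, adjusted p = 0.0116), and over 19 alternatives its adjusted p ran from 0.0116 to 0.21. Per1 (0.35 ± 0.21), Per2 (-0.14 ± 0.13), Cry2 (0.12 ± 0.11), Rora (-0.09 ± 0.10), Bhlhe40 (0.37 ± 0.20), Bhlhe41 (-0.17 ± 0.17) and Ciart (0.53 ± 0.28) were not called either. Of the 13 core clock genes, 3 were thus higher and 0 lower, against 3.37% and 3.75% of all tested genes. Their median was 0.12 against 0.03 for all tested genes. Without chow sample 3, high fat sample 1 or high fat sample 3, 2 were higher. After quantile normalization or median centring 2 were higher and 1, Cry1, was lower. The median was -0.02 after median centring and ran from 0.027 without high fat sample 1 to 0.20 without high fat sample 2.

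**Figure D2:**
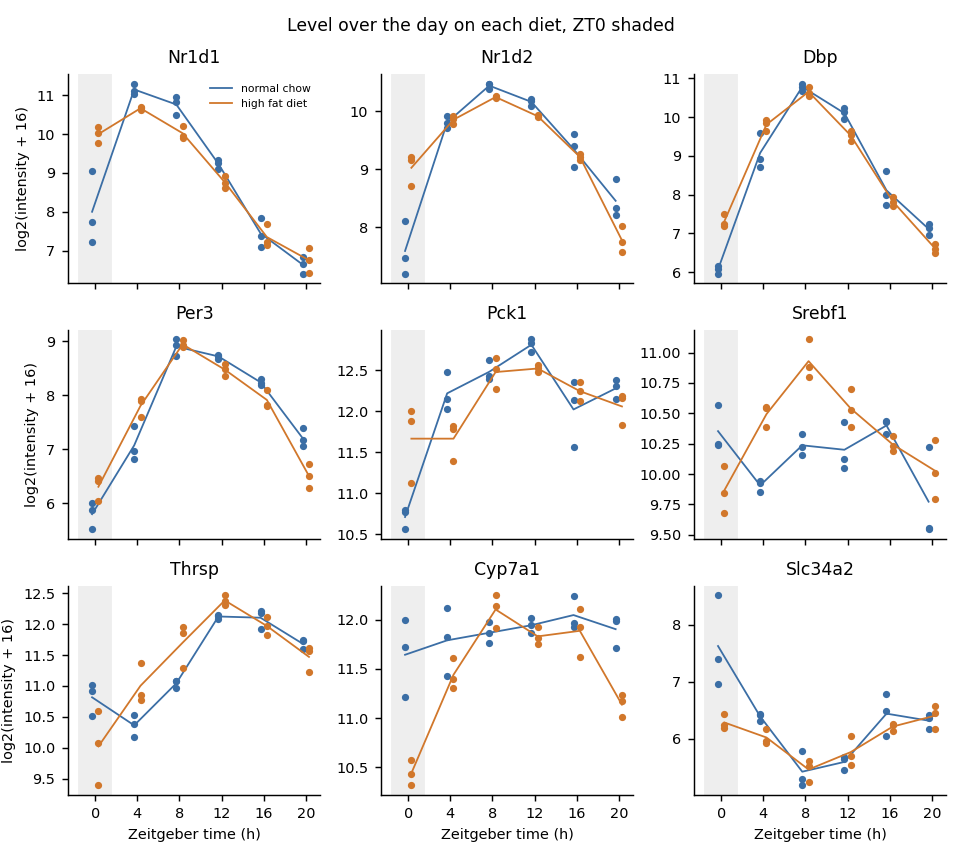
Each panel plots a gene's log2(intensity + 16) against Zeitgeber time in hours, with points for samples, lines through the means of 3 samples per diet and ZT0 shaded. Nr1d1, Nr1d2 and Dbp stand apart between the diets at ZT0, with Nr1d1 means of 8.00 on chow and 9.995 on high fat diet.

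Over all genes, the diet difference at ZT0 differed from the mean of the other 5 times in 31 genes, 10 higher at ZT0 (0.0717%) and 21 lower (0.15%). With quantile normalization these counts were 18 and 97, and with median centring 12 and 217. Of the 31 genes, 23 were also called at ZT0 and 8 were not. A call at ZT0 and at no other time was far more common, in 677 genes, but only 15 of these passed the test of the difference between times. Single samples moved these counts too, to 15 higher and 61 lower without high fat sample 1, 25 and 51 without chow sample 1, 9 and 4 without chow sample 2, 5 and 13 without chow sample 3, 7 and 6 without high fat sample 3, 19 and 24 without chow sample 3 of ZT20, and 27 and 31 without chow sample 2 of ZT4.

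Beside the clock genes, the largest positive value of this test was in Pck1, which encodes the cytosolic enzyme that commits carbon to gluconeogenesis. It was at 10.77, 10.56 and 10.80 on chow and at 11.88, 11.12 and 12.00 on high fat diet. All high fat samples were above chow, with sample 2 the nearest, and the difference was 0.96 ± 0.18 (1.94-fold, adjusted p = 0.00166). The other 5 differences lay between -0.56 and 0.23 and the ZT0 value exceeded their mean by 1.13 (adjusted p = 0.00734), a call that was lost without high fat sample 3 (adjusted p = 0.055). Chow Pck1 had means of 12.28 at ZT20, 10.71 at ZT0 and 12.22 at ZT4, so ZT0 was its lowest point of these times on chow, whereas the high fat means were 12.06, 11.67 and 11.67.

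The other genes with a more positive difference at ZT0 were smaller in size. Junb, a subunit of the AP-1 transcription factor, was at 6.32, 6.62 and 6.73 on chow and 6.999, 6.86 and 7.57 on high fat diet, a difference of 0.58 that exceeded the other times by 0.80. Klhl24 (0.67 at ZT0, 0.82 above the others), the mitochondrial sodium and calcium exchanger Slc8b1 (0.52 and 0.76), Zc3h6 (0.51 and 0.67), Zbed5 (0.71 and 0.62) and Rap1gap2, which switches off the GTPase Rap1 (0.57 and 0.53), did likewise. None of these 6 had overlapping groups at ZT0, nor had 26.5% of all tested genes. All 6 were called at ZT0 on these same values, so the separation follows largely from the selection. Over 19 alternatives the ZT0 call was lost in 8 for Slc8b1, 7 for Junb and 2 for Klhl24. It was lost in 5 of 17 for Zc3h6, 1 of 18 for Rap1gap2 and 0 of 18 for Zbed5.

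Among the genes with a more negative difference at ZT0 were 2 regulators of fat synthesis. Srebf1, which encodes the SREBP1 activator of lipogenic genes, was at 10.26, 10.57 and 10.24 on chow and at 10.07, 9.85 and 9.68 on high fat diet. The diets were apart, and the fall of 0.49 ± 0.14 on the log2 scale (adjusted p = 0.0322) stood against rises of 0.59 at ZT4 and 0.69 at ZT8, which were called. Against the mean of the others the ZT0 difference was -0.83 ± 0.16 (adjusted p = 0.0147). This call was lost without chow sample 2 or high fat sample 3. The call at ZT0 itself was lost in 7 of 19 alternatives, among them without chow sample 2 or 3 or high fat sample 2 or 3.

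Thrsp, a protein that promotes lipogenesis, was at 10.52, 10.92 and 11.01 on chow and at 10.59, 10.08 and 9.40 on high fat diet. The groups overlapped, since high fat sample 1 lay above chow sample 1, and the difference of -0.80 ± 0.20 (adjusted p = 0.0146) became -1.04 ± 0.21 against the other times (adjusted p = 0.0244). The latter call did not hold without chow sample 2 or 3 or high fat sample 2 or 3. Thrsp was at 0.64 and 0.66 at ZT4 and ZT8, neither of them called.

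Cyp7a1, the enzyme that sets the pace of bile acid production, was at 11.72, 12.00 and 11.21 on chow and at 10.32, 10.43 and 10.57 on high fat diet. Every high fat sample was below every chow sample, and the high fat samples were tight, with an SD of 0.13 against 0.40 on chow. The difference was -1.20 ± 0.16 (0.435-fold, adjusted p = 2.60e-05), and Cyp7a1 was also lower at ZT20 (-0.76) while the other 4 times lay between -0.35 and 0.24. The ZT0 difference was -0.97 ± 0.17 against the mean of the others (adjusted p = 0.00853), a call that ended without chow sample 2 or when only ZT20 and ZT4 were compared.

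Slc34a2, a sodium and phosphate cotransporter, was at 7.41, 8.53 and 6.95 on chow and at 6.18, 6.24 and 6.44 on high fat diet. Chow sample 2 stood above all others, and the call against the other times (-1.28 ± 0.25, adjusted p = 0.0173) ended without it. At ZT20 and ZT4 the chow means were 6.32 and 6.39, so the chow samples of ZT0 were the high ones.

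Several further genes of this kind belong to lipid and proline metabolism or to glycogen control. Prodh, proline dehydrogenase, was at 10.49, 10.56 and 10.44 on chow and at 10.02, 9.89 and 9.88 on high fat diet, and its -0.57 ± 0.10 at ZT0 faced values between -0.19 and 0.14 elsewhere. L3hypdh, an enzyme of hydroxyproline breakdown, fell by 0.47, and Ormdl3, a regulator of sphingolipid synthesis, fell by 0.42. The nuclear receptor Ppard fell by 0.66 at ZT0 and rose by 0.64 at ZT20. Ppp1r3b, which brings protein phosphatase to glycogen, was not called at ZT0 (-0.36, adjusted p = 0.157) but was higher at ZT8 (1.26), and its ZT0 value differed from the mean of the others by -0.88 (adjusted p = 0.0173). Lgalsl (-0.12 at ZT0, -0.75 against the others) and Paqr9 (-0.21 and -0.60) were of the same kind. Zfp870 (-0.52), Dtx4 (-0.52) and Pm20d2 (-0.30) fell at ZT0.

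Most ZT0 changes pointed the same way at other times without being called there. Of the 470 higher genes, 87.4% had a positive difference at ZT4 (54.2% of all genes), 69.4% at ZT8 (51.4%), 85.1% at ZT12 (50.9%), 81.3% at ZT16 (56.3%) and 68.1% at ZT20 (51.8%). Of the 523 lower genes, 79.9% were negative at ZT4 (45.8% of all genes), 65.0% at ZT8 (48.6%) and 87.4% at ZT12 (49.1%). At ZT16 89.9% of them were negative (43.7% of all genes) and at ZT20 70.7% (48.2%). Each time has its own controls. The direction was also called at 1 other time in 155 genes, at 2 in 57, at 3 in 41, at 4 in 36 and at all 5 in 20. These 20 were Apoa4, Bdh1, Cyp2d40, Extl1, Fabp2, Gpc1, Gpd2 and Stap1, all higher, and Adam11, Ces2a, Csad, Cyp2b10, Cyp2c55, Cyp3a11, Cyp3a44, Pir, Slc13a2, Slc39a4, Slco2a1 and Snhg11, all lower. In 9 genes the direction was the opposite at some other time, among them Dbp, Nr1d2, Per3, Srebf1, Ppard, Pm20d2 and Zc3h6, and Als2cl and Insc, which fell at ZT0 and rose at ZT12.

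The 12 largest called increases at ZT0 held Nr1d1 and Nr1d2 and 10 genes outside the core clock list, of which Cyp2b9 had the largest difference. Cyp2b9, a P450 of the female pattern in mouse liver, was at 5.28, 5.54 and 4.50 on chow and at 12.82, 8.45 and 6.59 on high fat diet. All high fat samples exceeded chow, but they were spread over a wide range. The difference of 4.18 ± 0.95 (adjusted p = 0.00962) became 2.42 without high fat sample 1, and the call was lost without that sample, without chow sample 3 and on the 6 ZT0 samples alone. Its close relative Cyp2b13, whose probes may share sequence with it, was at 5.70, 5.41 and 5.61 on chow and at 11.68, 5.70 and 5.71 on high fat diet. That gene was high in sample 1 alone and was not called (2.12 ± 0.84, adjusted p = 0.123).

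Stap1, a signalling adaptor, was at 5.38, 5.34 and 5.38 on chow and at 8.66, 7.80 and 6.94 on high fat diet, a difference of 2.43 ± 0.33 (adjusted p = 3.27e-05). Mfsd2a, a transporter of lysophosphatidylcholine, was at 7.30, 7.55 and 7.54 on chow and at 11.08, 9.65 and 8.11 on high fat diet (2.15 ± 0.43, adjusted p = 0.00349). Rgs16, a brake on G protein signalling, was at 4.94, 4.93 and 4.63 on chow and at 8.35, 8.40 and 6.09 on high fat diet (2.78 ± 0.67, adjusted p = 0.0139), a call that was lost without chow sample 3, high fat sample 1 or high fat sample 2. The call of Mfsd2a was lost on the 6 ZT0 samples alone. In these genes sample 1 or 2 was highest and sample 3 was the lowest of the high fat group, while the chow samples lay within a narrow band. The melatonin receptor gene Mtnr1a was at 6.86, 6.73 and 6.75 on chow and at 8.60, 8.03 and 7.95 on high fat diet (1.41 ± 0.17, adjusted p = 9.84e-06), without overlap and with a call in every alternative tried.

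Further large increases were in Apoa4, an apolipoprotein of secreted fat particles, and in defence genes. Apoa4 was at 10.28, 10.23 and 10.60 on chow and at 12.56, 12.14 and 11.32 on high fat diet (1.64 ± 0.25, adjusted p = 0.000151). Saa2, an acute phase protein, was at 7.59, 7.13 and 6.96 on chow and at 9.98, 8.40 and 8.21 on high fat diet (1.64 ± 0.37). Defb1, a defensin, was at 6.14, 6.36 and 5.83 on chow and at 8.51, 7.19 and 6.94 on high fat diet (1.44 ± 0.35). Sample 1 was the highest of the high fat group in each of these genes, and the calls of Saa2 and Defb1 were lost without it, without chow sample 3 and on the 6 ZT0 samples alone. Themis (1.70 ± 0.47) and 9030619P08Rik (1.43 ± 0.29) complete the 12 largest increases, and Themis lost its call without high fat sample 1, chow sample 2 or chow sample 3 and on the 6 ZT0 samples alone.

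The largest decreases were steadier across samples. Cyp2b10, the standard target of the xenobiotic receptor CAR, was at 9.79, 9.02 and 8.95 on chow and at 6.78, 6.01 and 5.61 on high fat diet, a difference of -3.12 ± 0.34 (0.115-fold, adjusted p = 1.80e-06). Cyp2c55 was at 8.68, 8.48 and 8.44 on chow and at 6.47, 6.59 and 6.06 on high fat diet (-2.16 ± 0.17, adjusted p = 1.24e-09). Cyp26a1, which breaks down retinoic acid, was at 7.74, 8.64 and 7.89 on chow and at 6.05, 6.37 and 5.69 on high fat diet (-2.05 ± 0.46, adjusted p = 0.00921). The diets were separate in each of these P450 genes, and Cyp2b10 and Cyp2c55 were lower at all 6 times.

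Csad, an enzyme on the route from cysteine to taurine, was at 10.62, 11.13 and 10.77 on chow and at 8.72, 9.07 and 8.64 on high fat diet (-2.03 ± 0.30, adjusted p = 0.000122). Slc13a2, a dicarboxylate transporter, was at 7.50, 8.21 and 7.64 on chow and at 5.51, 6.03 and 6.36 on high fat diet (-1.82 ± 0.21). Ces2a, a carboxylesterase, was at 10.999, 11.14 and 10.90 on chow and at 9.22, 9.65 and 9.67 on high fat diet (-1.4998 ± 0.13, adjusted p = 1.19e-08). The diets did not overlap in any of the 3 genes. Cyp3a44 (-1.53 ± 0.28) and Gm16551 (-1.29 ± 0.32) were also among the 12 largest decreases, and Gm16551 lost its call without high fat sample 1 or chow sample 3 and on the 6 ZT0 samples alone.

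The list of large decreases also held lipid enzymes. Acacb, the acetyl-CoA carboxylase whose product blocks entry of fatty acids into mitochondria, was at 9.86, 9.90 and 9.91 on chow and at 8.99, 8.997 and 8.46 on high fat diet (-1.07 ± 0.23, adjusted p = 0.00665). Pmvk, of the mevalonate pathway to cholesterol, was at 8.83, 9.08 and 8.71 on chow and at 7.37, 8.02 and 7.78 on high fat diet (-1.15 ± 0.19, adjusted p = 0.000437). Neither set of samples overlapped.

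**Figure D3:**
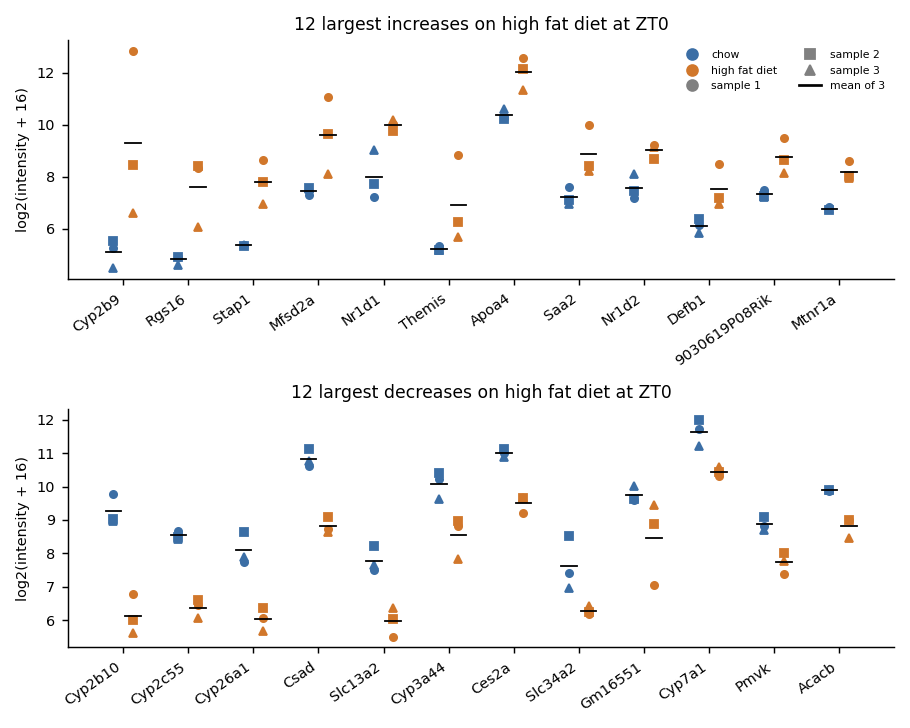
The 12 largest increases (top) and decreases (bottom) at ZT0, as log2(intensity + 16) of the 3 chow and 3 high fat samples, with a bar at each mean and a symbol for each sample number. Cyp2b9 runs from 6.59 to 12.82 among the high fat samples, whereas Cyp2c55 keeps within 6.06 to 6.59.

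Fat handling was examined by list, beside 3.37% of all tested genes higher and 3.75% lower. Of 38 genes of the PPARA receptor and fatty acid oxidation, 5 rose and 0 fell at ZT0 (5 and 4 after median centring), with a median of 0.11 against 0.03 for all genes, which turned to -0.02 after median centring and ran from -0.03 to 0.23 without single samples. Cpt1a, the gate to mitochondrial oxidation, was at 11.16, 11.28 and 11.19 on chow and at 12.00, 11.77 and 11.73 on high fat diet (0.62 ± 0.08, adjusted p = 3.12e-05). Ppara itself rose by 0.67 ± 0.12 (adjusted p = 0.00112), the ketone enzyme Bdh1 by 0.57 ± 0.09 and the lipase inhibitor Angptl4 by 1.00 ± 0.23. The last lost its call without high fat sample 1. The count was 3 without high fat sample 1 and 9 without high fat sample 3. The same list had 16 higher genes at ZT4 and 12 at ZT12, where 319 and 345 of all 13956 tested genes were higher. Cyp4a14, a much used PPARA target, was not called (0.16 ± 0.63), with high fat samples at 12.76, 10.79 and 8.30.

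Fat synthesis and lipid droplet counts stand beside the same 3.37% of all tested genes higher and 3.75% lower. Of 27 genes of fatty acid and triglyceride synthesis, 4 rose and 3 fell at ZT0, with a median of -0.08. Those that rose were Elovl2 (0.44 ± 0.11) and Fads2 (0.35), which lengthen and desaturate fatty acids, Lpin2 (0.46), a phosphatidate phosphatase, and Insig2 (0.60 ± 0.14), which holds back SREBP processing. Those that fell were Acacb, Thrsp and Srebf1, and the synthases Fasn (-0.38) and Acly (-0.50) were not called. Without chow sample 3, 1 gene rose and 1 fell, without chow sample 2, 2 and 1, without high fat sample 1, 1 and 3, and without high fat sample 3, 5 and 1. After median centring 1 rose and 6 fell, and the median was -0.22. It was -0.02 without high fat sample 3. At ZT4 and ZT12 the list held 8 and 9 higher genes and 0 lower ones. The 20 lipid droplet and PPARG genes held 3 higher (Apoa4, Fabp2 and the droplet coat Plin2 at 0.34) and 1 lower (Abhd5, a lipase partner, at -0.40), with a median of 0.15 that was 0.02 after median centring. Without high fat sample 3, 7 of them were higher and the median was 0.39, and without high fat sample 1 the median was 0.03. That list had medians of 0.58 at ZT4 and 0.63 at ZT12.

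Sterol and bile acid counts are set against 3.37% of all tested genes higher and 3.75% lower. Of 21 genes of cholesterol synthesis and uptake, 0 rose and 3 fell, with a median of -0.25 and a negative difference in all 21. The 3 were Pmvk, Dhcr7 (-0.53 ± 0.15) and Tm7sf2 (-0.50 ± 0.16), enzymes of the pathway to cholesterol. Only 1 was left without chow sample 2, chow sample 3 or high fat sample 1, and the median was -0.10 without high fat sample 1 and -0.35 without high fat sample 2. After median centring 8 fell. Of 25 bile acid genes, 2 rose, the canalicular transporters Abcb4 (0.47 ± 0.09) and Abcg5 (0.54 ± 0.12), and 3 fell, among them Cyp7a1 and the oxysterol hydroxylase Cyp39a1, at 9.65, 9.63 and 9.70 on chow and 9.51, 8.60 and 8.18 on high fat diet (-0.90 ± 0.22). The median of the list was 0.02 (-0.04 after quantile normalization and -0.12 after median centring) and was negative without chow sample 3 or any of the high fat samples, down to -0.07, and 1 gene fell without chow sample 3, high fat sample 2 or high fat sample 3.

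Carbohydrate genes are given by list, against 3.37% of all tested genes higher and 3.75% lower. Of 21 gluconeogenesis and glycogen genes, 3 rose (Pck1, the glycogen synthase Gys2 at 0.40 and the glycogen phosphatase subunit Ppp1r3g at 0.47) and 0 fell, with a median of 0.12. After median centring 2 rose and 2 fell and the median was -0.02, and it was -0.0053 without high fat sample 1. The glucose phosphatase G6pc was not called (0.21). Of the 3 calls 1 was left without chow sample 2, high fat sample 1 or high fat sample 2. Of 16 glycolysis and sugar uptake genes 0 rose and 2 fell, Pgk1 (-0.21) and Tpi1 (-0.27), whereas 3 were higher at ZT4 and 6 at ZT12. These 2 calls were lost without chow sample 2, chow sample 3 or high fat sample 1, and without high fat sample 3 the list had 3 higher and 0 lower genes. After median centring 4 fell. Among 26 insulin and IGF genes, the stress-induced mTORC1 inhibitors Sesn2 (0.58 ± 0.14) and Sesn3 (0.50 ± 0.11) rose, and the IGF carrier genes Igfbp2 (-0.86 ± 0.24) and Igfals (-0.40 ± 0.13) fell. The 2 decreases were lost without any of the chow samples or high fat sample 1 or 2, and the 2 increases without high fat sample 1. The median of that list was -0.0025 (-0.14 after median centring).

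Detoxification and sex-biased genes are given beside 3.37% of all tested genes higher and 3.75% lower. Of 26 targets of the receptors CAR and PXR, 1 rose and 9 fell, with a median of -0.15. Without high fat sample 3, 4 rose and 5 fell, without chow sample 2, 1 and 5, and without chow sample 1 the median was -0.07. Cyp2b10, Cyp2c55, Cyp3a44 and Ces2a led them. The P450 genes of the Cyp2b and Cyp3a families have close copies, so their probe sets may share signal. Of 22 sex-biased and growth hormone dependent genes, 1 rose (Cyp2b9) and 3 fell (Ces2a, Cyp3a44 and Cyp3a16 at -1.07 ± 0.23), with a median of -0.32 that was -0.016 without high fat sample 1 and -0.17 without chow sample 3. Without high fat sample 3, 3 rose and 6 fell, and after median centring 1 and 5. Of 24 glutathione and NRF2 genes, 2 rose and 6 fell, with a median of -0.24 (-0.10 without high fat sample 3 and -0.16 without high fat sample 2). After quantile normalization 2 rose and 9 fell, and after median centring 0 and 10. Without chow sample 1 or high fat sample 1, 0 rose. Gsta4, a glutathione transferase for lipid aldehydes, was at 10.54, 10.58 and 10.79 on chow and at 10.10, 9.54 and 9.46 on high fat diet (-0.94 ± 0.16, adjusted p = 0.000625). Gstm4 (-0.57 ± 0.14), glutathione reductase Gsr (-0.35 ± 0.07) and the lipid peroxidase Gpx4 (-0.43 ± 0.11) fell with it. Of the 6 decreases in the list 2 were left without chow sample 2 and 3 without chow sample 3, high fat sample 2 or high fat sample 3.

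Called genes of protein synthesis were all lower, whereas 3.37% of all tested genes were higher and 3.75% lower. Of 36 ribosome biogenesis genes, 0 rose and 12 fell at ZT0, with a median of -0.26 and with all high fat samples below all chow samples in 19, against 11.5% of all genes. After median centring 19 fell. Polr1b, a subunit of RNA polymerase I, was at 8.48, 8.72 and 8.92 on chow and at 8.17, 8.19 and 8.13 on high fat diet (-0.54 ± 0.10, adjusted p = 0.00118). The nucleolar factors Ddx18 (-0.42 ± 0.08), Nop56 (-0.43 ± 0.10) and Pes1 (-0.48 ± 0.10) fell by like amounts. The count was 13 at ZT12, 3 at ZT16 and 0 at ZT4, ZT8 and ZT20. Of all 13956 genes, 414, 164, 196, 69 and 112 were lower at these times. No member of the list passed the test of ZT0 against the other times. At ZT0 the list had 14 lower genes without chow sample 1, 5 without high fat sample 1 and 6 without chow sample 3.

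Ribosomal protein, proteasome and oxidative phosphorylation counts stand beside 3.37% of all tested genes higher and 3.75% lower. Of 28 cytosolic ribosomal protein genes, 0 rose and 5 fell, among them Rplp1 (-0.58 ± 0.12), Rps18 (-0.50 ± 0.11), Rps3 (-0.43 ± 0.10) and Rpl13 (-0.44 ± 0.11), with a median of -0.20, and 1 fell without high fat sample 1, 3 without chow sample 2 and 8 without high fat sample 3. After median centring 16 fell. These genes have many processed copies, so their probe sets may share signal. Of 35 proteasome genes, 5 fell, such as Psma7 (-0.38), Psmb6 (-0.42) and Psmc5 (-0.31), and 1 rose, Psmb9 (0.47), the interferon-inducible subunit of the immunoproteasome. The 45 oxidative phosphorylation genes had 0 higher and 4 lower (Cox4i1, Cox5a, Ndufa4 and Uqcrh, at -0.29 to -0.37). The medians of these lists were -0.11 and -0.10, and under median centring 14 genes fell in each. In both lists 0 genes fell without chow sample 2, chow sample 3 or high fat sample 1, and 1 fell without high fat sample 2.

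The next 3 lists stand beside 3.37% of all tested genes higher and 3.75% lower, with a median of 0.03. Of 34 amino acid breakdown and urea cycle genes, 2 rose and 7 fell, with a median of -0.13, and the others were not called. After median centring 0 rose and 16 fell, and 0 rose without chow sample 3 or high fat sample 1. Afmid, of tryptophan breakdown, was at 11.03, 11.33 and 11.09 on chow and at 10.38, 10.62 and 10.46 on high fat diet (-0.66 ± 0.10, adjusted p = 0.000104). Ddc, which decarboxylates aromatic amino acids, fell by 0.80, and Asl of the urea cycle fell by 0.46. Among 22 genes of methionine, folate and sulfur metabolism, with a median of -0.04, 3 fell (7 after median centring), which were Csad, the cysteine-producing lyase Cth (-0.43) and the folate enzyme Mthfd1 (-0.26). Among 29 nucleotide, NAD and uridine genes, with a median of -0.05 and 12 positive differences, 4 fell (6 after median centring), which were Aprt of adenine salvage (-0.71 ± 0.11, adjusted p = 0.000226), Naprt of NAD synthesis (-0.36), the uridine phosphorylase Upp2 (-0.60) and the purine phosphorylase Pnp (-0.45). Without high fat sample 1 these lists kept 5, 1 and 2 lower genes, and without chow sample 1 or 2 the methionine list kept 1.

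Stress and hormone response genes were examined by list, beside 3.37% of all tested genes higher and 3.75% lower. Of 33 genes of ATF4 and the unfolded protein response, 1 rose (Sesn2) and 2 fell (Atf4 at -0.49 ± 0.12 and Ddit4 at -0.51 ± 0.16). Of 19 heat shock and cold-inducible genes, 0 rose and 2 fell (Bag3 at -0.51 ± 0.13 and Hspb1 at -0.69 ± 0.20, with overlapping groups). Of 16 glucocorticoid targets, 2 rose and 0 fell, Angptl4 and the iron-binding Lcn2, which was at 7.27, 7.12 and 7.36 on chow and at 10.42, 8.08 and 7.46 on high fat diet (1.41 ± 0.39). Lcn2 was high mainly in sample 1 and lost its call without that sample, without any of the chow samples and on the 6 ZT0 samples alone. The 4 decreases of the stress lists were lost without chow sample 2 or 3. Of 19 clock output genes, 3 rose (Dbp, Rgs16 and Gys2) and 3 fell (Ces2a, Upp2 and the tetraspanin Tspan4 at -0.69 ± 0.10), with a median of -0.09. After median centring 2 rose and 7 fell, and 1 rose without high fat sample 1 or high fat sample 2.

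**Figure D4:**
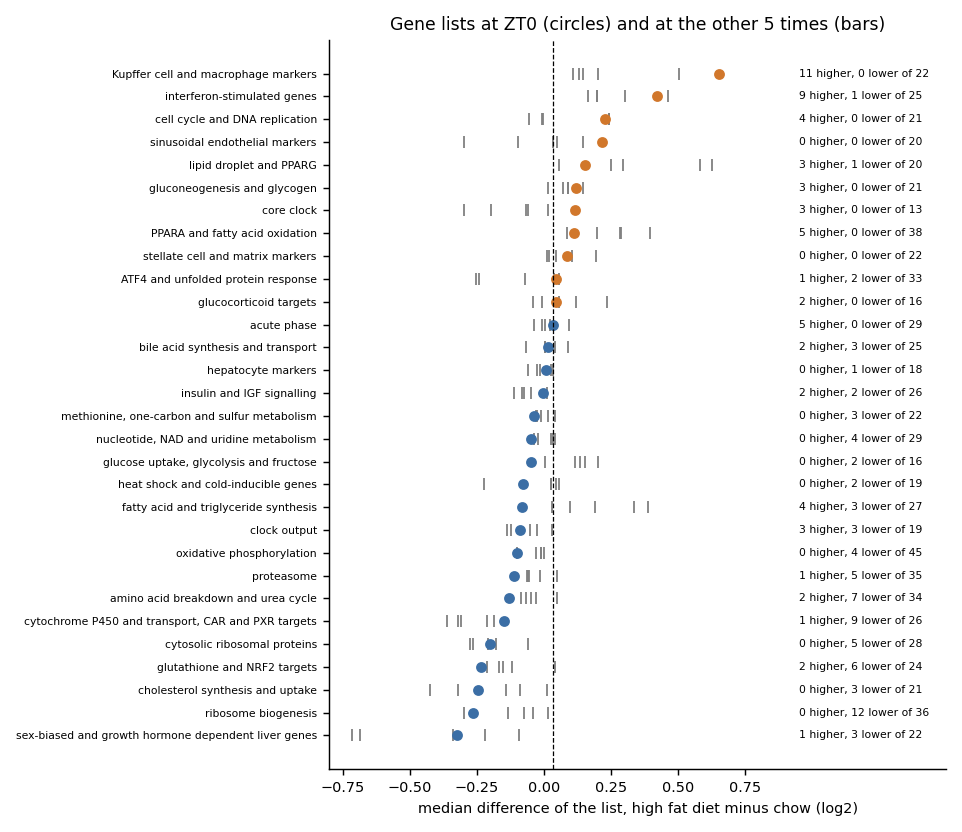
Median diet difference (log2, x axis) of each gene list with at least 10 genes tested, at ZT0 (coloured dot) and at the other 5 times (grey ticks), with the counts called at ZT0 at the right and the median of all genes as a dashed line. The Kupffer cell and macrophage list lies at 0.65, furthest to the right, and the sex-biased list lies at -0.32, which was -0.016 without high fat sample 1.

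Macrophage genes were higher at ZT0, where 3.37% of all tested genes were higher and 3.75% lower. Of 25 Kupffer cell and macrophage markers on the array 22 were bright enough to test, and of these 11 rose and 0 fell, with a median of 0.65 against 0.03 for all genes, and in 18 all high fat samples lay above all chow samples, against 14.9% of all genes. C1qb, a complement component made by macrophages, was at 9.01, 9.28 and 9.31 on chow and at 10.31, 10.46 and 10.48 on high fat diet (1.22 ± 0.30, adjusted p = 0.0153). Cd5l, a secreted Kupffer cell protein, was at 8.92, 8.75 and 8.70 on chow and at 9.73, 9.72 and 10.14 on high fat diet (1.08 ± 0.25, adjusted p = 0.00987). The Fc receptor gene Fcgr1 was at 6.41, 6.23 and 6.12 on chow and at 6.94, 6.92 and 6.88 on high fat diet (0.66 ± 0.12, adjusted p = 0.00201). In these genes the high fat samples were close together and clear of chow.

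The other markers that rose were Vsig4 (1.18 ± 0.36) and Timd4 (0.70 ± 0.22), both resident Kupffer cell surface genes, Adgre1 (0.94 ± 0.26), Cd68 (0.83 ± 0.25), Csf1r (0.70 ± 0.21), Mpeg1 (0.64 ± 0.18), Tyrobp (0.90 ± 0.24) and Lgals3 (0.60 ± 0.14). Clec4f (0.51 ± 0.18) and Lyz2 (0.79) were not called, nor were Marco (0.11) and Itgam (-0.08). In bulk liver, more cells of a type and more RNA per cell cannot be told apart. The mean level of the 22 markers was 8.00 to 8.01 in the 3 chow samples and 8.59 to 8.76 in the 3 high fat samples. Of the 22, 19 had their highest value of all 36 samples in a high fat sample of ZT0. The number of all genes that did so was not counted, so this count has no background.

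This list had 2 higher genes at ZT12, with a median of 0.50, and 0 at the other 4 times, with medians of 0.11 to 0.20. No marker passed the test of ZT0 against the other times (lowest adjusted p = 0.0908, in Fcgr1), although 10 had an unadjusted p under 0.05 and 21 a positive value. The count of higher markers at ZT0 fell to 3 without high fat sample 2, to 4 without chow sample 2, chow sample 3 or high fat sample 3, and to 7 without either sample 1, while the median stayed between 0.61 and 0.70. It was 12 after quantile normalization and 7 after median centring.

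**Figure D5:**
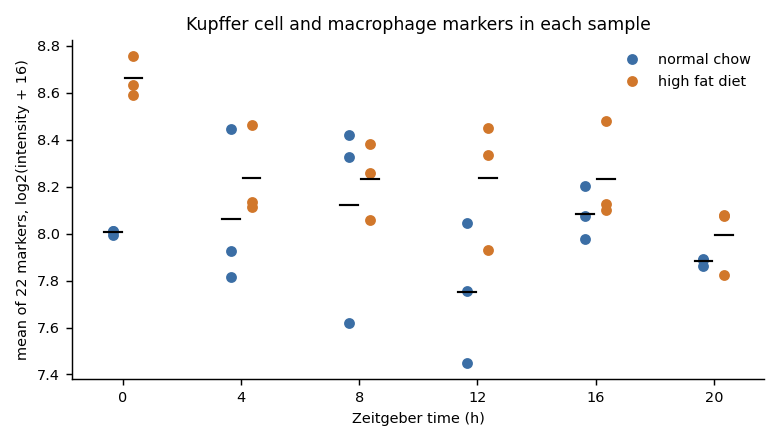
Mean log2(intensity + 16) of 22 Kupffer cell and macrophage markers in each of the 36 samples (points), by Zeitgeber time in hours and diet, with a bar at each group mean of 3 samples. At ZT0 the chow samples lie at 8.00 to 8.01 and the high fat samples at 8.59 to 8.76.

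Markers of other liver cells gave no call in several lists, beside 3.37% of all tested genes higher and 3.75% lower. The 20 sinusoidal endothelial markers had 0 calls and a median of 0.22 (0.08 after median centring, 0.11 without chow sample 1), with mean levels over the list of 8.74 to 8.95 on chow and 9.04 to 9.13 on high fat diet. Tie1 (-0.27 ± 0.10) was called lower after quantile normalization, after median centring and with array weights. At the other times the medians of the list ran from -0.30 to 0.14. The 8 T, NK, B and plasma cell markers had 0 calls and a median of 0.29 (6.85 to 6.88 on chow, 7.02 to 7.16 on high fat diet, with a median of 0.18 after quantile normalization and 0.16 after median centring), and the 22 stellate cell and matrix markers 0 calls and a median of 0.08 (8.12 to 8.32 and 8.16 to 8.47, with a median of 0.007 after quantile normalization, -0.05 after median centring and 0.17 without high fat sample 3). The 18 hepatocyte markers had 1 lower gene, Foxa3 (-0.61 ± 0.15, groups overlapping), a median of 0.01 (-0.06 after quantile normalization, -0.13 after median centring and -0.07 without chow sample 3) and levels of 11.48 to 11.55 on chow and 11.33 to 11.44 on high fat diet. Neutrophil, bile duct, adipose, red blood cell and muscle markers had 0 calls among 5, 5, 8, 3 and 7 genes. Their medians were 0.19, 0.04, 0.19, 0.005 and 0.24, and after median centring 0.06, -0.09, 0.06, -0.13 and 0.10. Of 7 pancreas and gut markers, Fabp2, the gut form of the fatty acid binding protein, rose, from 9.66, 9.54 and 9.85 on chow to 11.02, 10.68 and 10.29 on high fat diet (0.98 ± 0.14, adjusted p = 0.000108). The part of these cell types in the other results was not tested.

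Interferon-stimulated genes were also higher, beside 3.37% of all tested genes higher and 3.75% lower. Of 25 tested, 9 rose and 1 (Bst2, at -0.39) fell, with a median of 0.42, and 4 rose without chow sample 3, 5 without high fat sample 1 and 5 after median centring. Usp18, which dampens interferon signalling, was at 8.03, 8.05 and 7.85 on chow and at 9.11, 8.55 and 9.03 on high fat diet (0.92 ± 0.14, adjusted p = 0.000226). The antiviral genes Rsad2 (0.89 ± 0.20), Ifit1 (0.79 ± 0.18) and Xaf1 (0.62 ± 0.14) rose with it. At ZT12 15 of the 25 were higher (345 of all 13956 genes), and no member passed the test of ZT0 against the other times. The macrophage markers moved with these genes at ZT0 and ZT12, and their part in the result was not tested.

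Acute phase and cell cycle counts are set against 3.37% of all tested genes higher and 3.75% lower. The acute phase list had 5 higher genes of 29, among them Saa2, Lcn2, Saa4 (0.42 ± 0.13) and the protease inhibitor Serpina3n (0.33 ± 0.10), and a median of 0.03, the same as that of all genes (-0.01 after quantile normalization and -0.10 after median centring). Of these calls 0 were left without chow sample 3 or high fat sample 1. Of 21 cell cycle and DNA replication genes, 4 rose and 0 fell, with a median of 0.23 that was 0.09 after quantile normalization or median centring and 0.098 without high fat sample 1. Ccnb2, a cyclin of mitosis, was at 7.51, 7.43 and 7.29 on chow and at 8.96, 7.75 and 7.86 on high fat diet (0.78 ± 0.19), and Ccna2 (0.80 ± 0.22), Ccne1 (0.40 ± 0.10) and Cdc20 (0.42 ± 0.13) rose too. Sample 1 was the highest in each, and 0 were called without high fat sample 1 or without chow sample 3 and 2 without chow sample 2. The list had 7 higher genes at ZT12.

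The genes with the largest spread between the 3 samples of a diet were mostly not called. Moxd1, which encodes a relative of dopamine hydroxylase, was at 7.17, 10.95 and 11.36 on chow and at 6.38, 9.57 and 13.71 on high fat diet, with SDs of 2.31 and 3.68, and its difference was 0.06 ± 1.19. On chow the immediate early gene Egr1 (8.83, 6.29 and 6.00), the growth hormone and cytokine target Cish (8.24, 6.08 and 8.70), the transcriptional repressor Bcl6 (7.53, 10.06 and 8.27) and the interferon-inducible Gbp11 (8.68, 6.61 and 8.70) came next. Cish and Gbp11 were lowest, and Bcl6 highest, in chow sample 2. On high fat diet Cyp2b9, Cyp2b13, Cyp2a22 (11.37, 7.79 and 7.22) and Cyp4a14 (12.76, 10.79 and 8.30) had the largest SDs after Moxd1. All 4 were highest in high fat sample 1. Of these genes only Cyp2b9 was called.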

How the data were processed

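Liver RNA from 36 samples was hybridised to whole-transcript Affymetrix gene arrays, per the labels' protocols. The authors deposited a linear intensity per probe set and array, made with Affymetrix Expression Console 1.1.1 and PLIER 2.0, per the submitters' processing notes. How background was removed, and whether arrays were scaled to each other, is not given in the sources used here, and the array medians differed. The number of arrays, 3 per group, limits the precision.

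The deposited intensities were taken to log2(intensity + 16). Of 35556 probe sets, 21789 name 1 gene in the platform annotation, 1621 several and 12146 none here, and symbols were updated by Entrez ID (99.6% matched). The brightest probe set stood for each of the 999 genes with several. Of 19938 genes, 13956 with a mean log2 value above 6.11 (the 30th percentile) were tested.

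Samples were grouped by their labelled time and diet. A model with a mean per group was fitted with limma 3.58.1 in R 4.3.3 (24 residual degrees of freedom). The 2 main contrasts were diet at ZT0, and that difference minus the mean of the other 5. Diet was also tested at each of the other 5 times. P-values were adjusted over all genes for each contrast (Benjamini-Hochberg). The code was tested on simulated data. Genes named are the 12 largest differences each way, the 10 largest each way between times, up to 4 called members per list by p (the best member where none was called), all core clock genes, genes called at ZT0 alone and between times (up to 6 each way), genes of opposite direction elsewhere (up to 5) and the 5 largest SDs per diet. Genes named beyond this rule (other macrophage markers, Fads2, Lpin2, Fasn, Acly, G6pc, Bst2, genes called at all 6 times, Als2cl and Insc) were picked once their values had been seen. The comparison, lists and rule were chosen with earlier results of these data known. Gene lists are described by counts and medians, with no test. Promoter sequences are from RefSeq.

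Alternatives changed the normalization, filter, probe set rule, offset, weights, variance prior, threshold, samples in the fit and times compared, and left out each sample in turn.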

Additional observations from a re-analysis of the deposited data

Results flagged for a closer look

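In 24 of the named genes the diet difference at ZT0 differed from the mean of the differences at the other 5 times by limma's test of that contrast (adjusted p under 0.05 over all genes). The values that follow are the ZT0 difference minus that mean, on the log2 scale.

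It was positive in 10 genes. Nr1d1 had 2.33, Nr1d2 1.68, Dbp 1.39 and Pck1 1.13. Klhl24 had 0.82, Junb 0.80, Slc8b1 0.76, Zc3h6 0.67, Zbed5 0.62 and Rap1gap2 0.53.

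It was negative in the other 14. Slc34a2 had -1.28, Thrsp -1.04, Cyp7a1 -0.97, Ppp1r3b -0.88 and Srebf1 -0.83. Ppard had -0.77, Lgalsl -0.75, Ormdl3 -0.60, Paqr9 -0.60 and L3hypdh -0.59. Pm20d2 had -0.56, Prodh -0.53, Zfp870 -0.51 and Dtx4 -0.50. Of the 24, the calls of Nr1d1, Nr1d2 and Dbp held in every one of 49 alternatives, 15 were lost without chow sample 2 of ZT0 and 17 without high fat sample 3 of ZT0.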

How the results depend on the processing

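Counts of called genes depended on the threshold, the scaling and single samples, and the cause was not tested. Higher genes at ZT0 were 195 after median centring, 311 with a filter at the 50th percentile, 77 at an adjusted p of 0.01, 159 with at least 1.5-fold, 195 on the 6 ZT0 samples alone, and 99 to 472 without single samples. Lower genes were 873 after quantile normalization, 1611 after median centring, 127 at 0.01, 75 with 1.5-fold, 90 on the 6 samples, and 171 to 528 without single samples. For the difference between times, higher genes were 18 after quantile normalization, 48 with array weights, 5 at 0.01, 34 against ZT20 and ZT4 only, and 5 to 27 without single samples. Lower genes were 97 after quantile normalization, 217 after median centring, 38 with the 50th percentile filter, 132 with array weights, 2 at 0.01, 10 with 1.5-fold, 60 against ZT20 and ZT4, and 4 to 61 without single samples. Of 115 named genes called at ZT0, 31 kept the call in every one of 19 alternatives and 0 reversed. Without high fat sample 1, 51 lost it and 14 moved by over 1.5 times, without chow sample 3 47 and 0, and without chow sample 2 39 and 1. Reversals were in genes not called. After median centring Cry2 was at -0.019, Gbp11 at -0.055, Kdm5d at -0.086 and Moxd1 at -0.072, and with array weights Kdm5d was at -0.022 and Moxd1 at -0.86. Against ZT20 and ZT4, Arntl was at 0.25 and Ciart at -0.16. Without single samples Bpgm ran from -0.17 to 0.077, Cyp4a14 from -0.91 to 1.32, Gbp11 from -0.61 to 0.43, Kdm5d from -0.025 to 0.12, Moxd1 from -1.85 to 1.81 and Rora from -0.21 to 0.021, and between times Bhlhe40 from -0.23 to 0.18 and Rora from -0.20 to 0.035. Same-numbered samples of the 2 diets at ZT0 did not deviate together (correlations of -0.107, -0.159 and 0.0636), so the numbers do not pair them, and with the replicate number as a block 479 genes were higher and 525 lower at ZT0, and 12 and 22 between times. Limits are 3 arrays per group, dim genes whose change the offset understates, and an unstated normalization.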
